A study of Mus musculus with 139 samples.

Results

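The genes described here are 10 immediate early response genes, Fos, Fosb, Jun, Junb, Jund, Egr1, Atf3, Ier2, Btg2 and Nr4a1. They were chosen by name, with no measured value in the choice, as the lines of the raw count table whose gene identifier carries one of these symbols in the GENCODE annotation. This gave 10 lines of the 55335 in the table, and 9 of the 10 reached 5 CPM, counts scaled to the library total, in at least 1 group of cells. The member that stayed below was Atf3.

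The study compared hair cells, the sound receptors of the inner ear, along the cochlea of the mouse, with 1 cell in each of 139 libraries. Outer hair cells (OHCs) amplify sound by changing length, and inner hair cells (IHCs) pass the signal to the auditory nerve. All cells came from mice of postnatal days 14 to 16, and the sources used here give neither a strain, a genotype nor a treatment. The groups were apical OHCs (21 cells) and apical IHCs (34), middle OHCs (23) and middle IHCs (34), and basal OHCs (8) and basal IHCs (19), where the base of the cochlea hears high tones and the apex low tones. No label names an animal, so each group stood as 1 sample, no test between groups was possible and no p-value is given. Levels are counts summed over the cells of a group as CPM, and their intervals cover counting error only. In such sums, fewer cells with a transcript and less transcript per cell cannot be told apart, which is why the values of the cells follow each level.

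Immediate early genes are transcribed within minutes of a stimulus, from factors that are already in the cell. Growth factor and stress signals reach them through MAP kinases and serum response factor, and calcium and cyclic AMP reach them through CREB. Because they also respond to enzymes, cutting and cooling, they are read in isolated cells as a sign of activity or of handling. Fos and Fosb proteins pair with Jun, Junb or Jund to form AP-1, a basic leucine zipper transcription factor. Egr1 is a zinc finger transcription factor and Nr4a1 an orphan nuclear receptor. Btg2 binds the deadenylase complex and restrains proliferation, Ier2 is a small nuclear protein, and Atf3 is a stress-induced leucine zipper factor of the CREB family.

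In GRCm38, Fos lies at chr12:85473890-85477273 on the plus strand with 4 exon blocks, Fosb at chr7:19302696-19310051 on the minus strand, and Jun, a gene of 1 exon, at chr4:95049034-95052222 on the minus strand. Junb (chr8:84974484-84978718, minus strand), Jund (chr8:70698949-70700616, plus strand) and Ier2 (chr8:84661331-84662852, minus strand) share chromosome 8. Nr4a1 lies at chr15:101254269-101274795 (plus strand). Atf3 (chr1:191170296-191218039, minus strand) and Btg2 (chr1:134075170-134079120, minus strand) lie on chromosome 1. All are protein coding. Exons of Jun overlap the antisense gene Junos, those of Junb overlap Prdx2 and those of Jund overlap Gm11175, each on the opposite strand, and reads of these pairs cannot be told apart unless the counting used strand, which the sources used here do not state.

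RefSeq start sites of GRCm38.p6 gave the 250 bases before the start for 8 of the 10 members. These starts are not always the ends of the gene spans given above. The Jund window (chr8:70697489-70697738) ends well before its span begins. Those of Atf3 (chr1:191183334-191183583) and Nr4a1 (chr15:101266596-101266845) lie inside their spans. The promoters of Fos, Fosb and Jun are shown because these genes went together over cells, and that of Btg2 because it was the member with the highest level per kb of exon in IHCs. Capitals mark TGACG on either strand, the core of CREB and ATF sites.
Fos promoter, chr12:85473640-85473889, plus strand: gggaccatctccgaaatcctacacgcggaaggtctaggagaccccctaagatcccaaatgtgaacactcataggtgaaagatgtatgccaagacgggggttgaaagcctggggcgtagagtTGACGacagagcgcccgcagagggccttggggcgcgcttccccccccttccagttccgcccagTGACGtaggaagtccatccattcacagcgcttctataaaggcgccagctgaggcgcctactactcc
Fosb promoter, chr7:19310046-19310295, minus strand: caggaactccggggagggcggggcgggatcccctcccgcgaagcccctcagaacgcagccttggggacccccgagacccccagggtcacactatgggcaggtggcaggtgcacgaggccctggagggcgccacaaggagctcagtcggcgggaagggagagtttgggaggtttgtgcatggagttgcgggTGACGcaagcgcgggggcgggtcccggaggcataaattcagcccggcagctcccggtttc
Jun promoter, chr4:95052223-95052472, minus strand: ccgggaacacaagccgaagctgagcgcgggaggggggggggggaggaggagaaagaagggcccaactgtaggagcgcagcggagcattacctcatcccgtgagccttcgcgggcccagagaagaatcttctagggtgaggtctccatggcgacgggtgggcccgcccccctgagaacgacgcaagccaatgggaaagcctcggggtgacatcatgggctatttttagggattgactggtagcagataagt
Btg2 promoter, chr1:134079156-134079405, minus strand: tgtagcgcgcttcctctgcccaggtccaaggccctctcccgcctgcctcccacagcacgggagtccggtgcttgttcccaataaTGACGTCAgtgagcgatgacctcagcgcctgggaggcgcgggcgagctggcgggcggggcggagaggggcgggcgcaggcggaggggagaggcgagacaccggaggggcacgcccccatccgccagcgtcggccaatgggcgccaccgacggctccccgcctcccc

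TGACG was found in 6 of the 8 promoters (Fos, Fosb, Junb, Atf3, Btg2 and Nr4a1), against 17.8% of 32851 promoters of the same length. Fos held it at bases 129 to 125 and 66 to 62 before the start, Fosb at 60 to 56, and Jun did not hold it. The full palindrome TGACGTCA, which contains TGACG, was found in Btg2 alone among the 8, at bases 166 to 159, and in 1.55% of all promoters. The Egr site GCGGGGGCG was found in Fosb and Nr4a1 (2.57% of all promoters) and TATAAA in Fos (12.4%). Neither the CArG box, bound by serum response factor (1.47% of all promoters), nor the AP-1 letters TGANTCA (6.75%) were in any of the 8 windows. All motifs were searched on both strands, and a match or its absence describes these letters only.

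The labels were checked against 4 genes. Otof, the calcium sensor of the IHC synapse, stood at 213, 25.5 and 0.199 CPM in apical, middle and basal OHCs, against 5448, 3445 and 6506 CPM in apical, middle and basal IHCs. Ocm, the OHC calcium buffer oncomodulin, stood at 5391, 3294 and 4413 CPM in these OHCs, against 298, 139.7 and 1.30 CPM in the IHCs. Among basal OHCs, replicate 3 held 9533 CPM of Ocm and most of the counts, the median cell held 37.8 CPM, replicate 8 held 1.76 CPM and replicate 1 held 0, so these 2 cells held little or none of the marker of their label. Reads of the other type's gene were present in many cells. After thinning to 582635 counts a cell, 15.9% of 44 OHCs had a read of Slc17a8, the IHC vesicular glutamate transporter, against 95.1% of 81 IHCs, while 56.8% of OHCs had a read of Otof. Of the IHCs, 56.8% had a read of Ocm and 20.99% of Slc26a5, so the share of cells with reads of the other type's gene ran from 15.9% to 56.8%. Slc26a5, the OHC motor prestin, was at 34.3 CPM in basal OHCs, against 697 CPM in apical OHCs. Single cells of other groups also fell short of the marker of their label. Apical IHC replicates 18 and 22 had 0 CPM of Otof and of Slc17a8, and replicate 8 had 0.984 CPM of Otof and 1523 CPM of Ocm. Middle OHC replicate 12 had 3671 CPM of Otof and 0 of Ocm. These are examples: 10 CPM of Ocm was reached by 21 of 21 apical, 16 of 23 middle and 5 of 8 basal OHCs. For Slc26a5 it was 5 of 31 OHCs in 1 set of title numbers, up to 100, and 19 of 21 in the other. For Otof it was 31 of 34 apical, 32 of 34 middle and 18 of 19 basal IHCs. Apical IHC replicates 18 (396 CPM of Fos) and 22 (29.1 CPM) are counted below among the IHCs at 10 CPM or more of Fos. Total counts ran between 71027 and 13576942 a cell. Title numbers fall into a lower series (up to 100, 81 cells) and a higher series (above 100, 58 cells) which the sources used here do not explain, and values within a series are given where they moved a member past or short of 2-fold between OHCs and IHCs. A change of 2-fold was read from the log2 ratio after adding 1 CPM to both levels, so the change of a gene at a low level is understated.

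Most members stood lower in OHCs than in IHCs in all 3 regions of the cochlea. In the apex, 7 of the 10 members were at least 2-fold lower in OHCs and 0 were at least 2-fold higher, where 32.4% of the 15004 genes that reached 5 CPM were lower and 28.6% were higher. In the middle, 7 were lower and 0 higher, against 29.7% and 20.7% of those genes. In the base, 7 were lower and 1, Nr4a1, was higher, against 48.9% and 16.1%, and the median gene there stood at −0.89 on the log2 scale, so that many genes were lower in basal OHCs. The median over the 10 members was −4.27 in the apex, −2.25 in the middle region and −3.62 in the base, where the median over all genes was −0.02 in the apex and −0.07 in the middle. Fos, Fosb, Jun, Junb, Egr1 and Btg2 were at least 2-fold lower in OHCs in every region, but in the lower series Fos, Jun and Junb were not in the base, nor Fosb in the apex and middle. Ier2 was lower in the apex alone, Nr4a1 in the middle alone, Jund in the base alone, and Atf3 in no region.

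**Figure D1:**
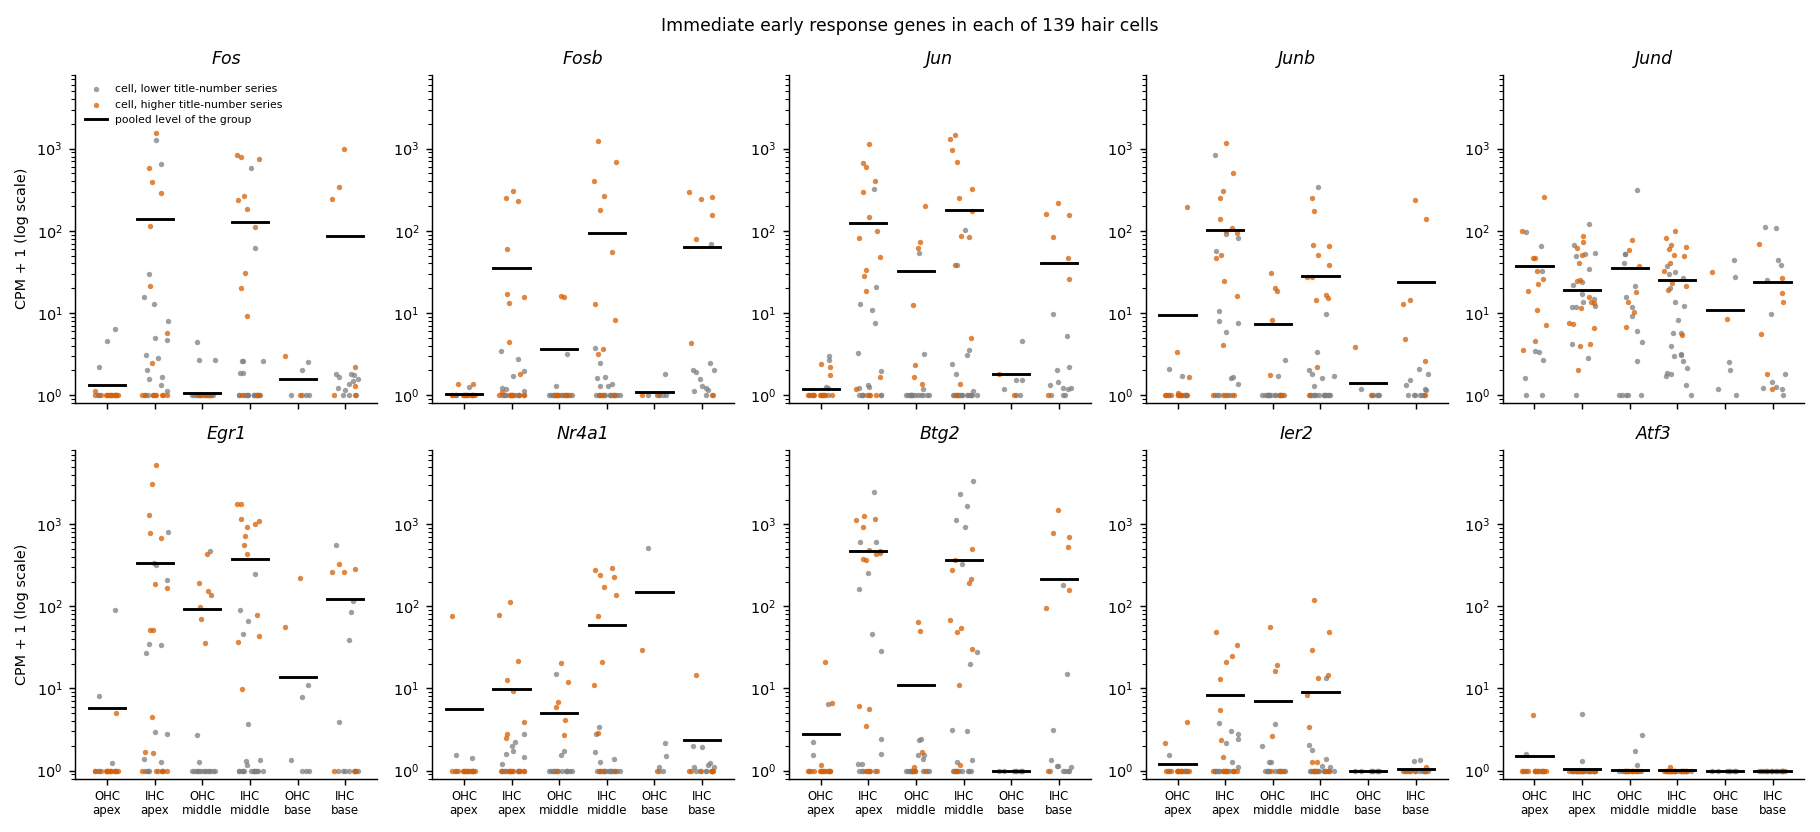
Each point is 1 cell, placed by group (OHCs left of IHCs of the same region) and by CPM + 1 of the member on a log scale, coloured by title-number series, and black lines mark the pooled CPM + 1 of the group. Fos stays below 10 CPM in all 52 OHCs and reaches 1561 CPM in apical IHCs, whereas Jund spreads over a like range in both types.

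Fos reached 10 CPM in IHCs alone. In OHCs it ran from 0 to 5.45 CPM in apical cells, from 0 to 3.43 CPM in middle cells and from 0 to 2.02 CPM in basal cells, with a median of 0 in each. In IHCs it ran from 0 to 1561 CPM in apical cells (median 1.67), from 0 to 841 CPM in middle cells (median 0.420) and from 0 to 999 CPM in basal cells (median 0.477). Low cells were thus found in all 6 groups and the groups overlapped, but cells with at least 10 CPM were found in IHCs alone, 25 of 87, against 0 of 52 OHCs (95% Clopper-Pearson interval of the OHC share up to 6.85%). The pooled level was 0.328 CPM in apical OHCs (0.226 to 0.461) against 138.7 CPM in apical IHCs (137 to 141). In the middle it was 0.0725 CPM in OHCs (0.0332 to 0.138), from 9 counts in 23 cells, against 128 CPM in IHCs (127 to 130). Basal OHCs had 0.548 CPM (0.273 to 0.980), against 86.2 CPM in basal IHCs (84.6 to 87.8). The log2 ratio of Fos was −6.72, −6.91 and −5.82 from apex to base. In the lower series the basal ratio was −0.28, since none of its 12 basal IHCs reached 10 CPM, while the apex stood at −6.44 and the middle at −5.77. Those values rest largely on 1 IHC each, with 69.2% of the Fos counts of lower-series apical IHCs and 85.4% of the middle ones. Without that cell, the IHC level was 65.8 CPM in place of 195.7 in the apex, and 10.5 CPM in place of 66.6 in the middle. After thinning, 18.2% of OHCs had a read of Fos, against 49.4% of IHCs, both within the range of shares that the other type's genes gave.

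Fosb, the other Fos protein of the set, was at 0.0298, 2.62 and 0.0996 CPM in apical, middle and basal OHCs, against 34.003, 92.9 and 61.7 CPM in apical, middle and basal IHCs. It reached 10 CPM in 2 of 52 OHCs, both middle cells, against 20 of 87 IHCs. Of those 20 IHCs, 19 belonged to the higher series, and in the lower the pooled level was at most 5.75 CPM in any group. Its log2 ratio was −5.09, −4.70 and −5.83 from apex to base, but −0.69, −0.20 and −2.64 in the lower series.

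Among the Jun proteins, Jun was at 0.199, 31.5 and 0.797 CPM in apical, middle and basal OHCs, against 125, 179 and 40.1 CPM in apical, middle and basal IHCs. Middle OHCs stood out within their type, with 5 of 23 cells at 10 CPM or more and a highest cell of 202 CPM that held 60.5% of the counts. Junb was at 8.34, 6.32 and 0.398 CPM in apical, middle and basal OHCs, against 100.6, 26.96 and 22.6 CPM in the IHCs. In apical OHCs, 94.9% of its counts came from 1 cell with 194 CPM, and the other 20 cells gave 0.445 CPM. From apex to base the log2 ratio was −6.71, −2.47 and −4.52 for Jun and −3.44, −1.93 and −4.07 for Junb. The base of the lower series gave −0.70 for Jun and −0.33 for Junb, both short of 2-fold.

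Jund, the Jun protein that most resting cells make, was not lower in OHCs in the apex or the middle. It was at 35.9, 33.9 and 9.91 CPM in apical, middle and basal OHCs, against 18.2, 24.4 and 22.9 CPM in apical, middle and basal IHCs. Cells at 10 CPM or more numbered 26 of 52 OHCs and 53 of 87 IHCs, and 84.1% of thinned OHCs and 87.7% of thinned IHCs had a read. Its log2 ratio was 0.94, 0.46 and −1.13 from apex to base. These directions did not hold across series: the apex gave −0.95 in the lower series and 1.30 in the higher, the middle gave 2.62 and −0.29, and the base gave −2.44 and 1.12, the last from 2 OHCs.

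Egr1 was the inducible member with the most OHCs at 10 CPM or more, 12 of 52. It stood at 4.70, 92.0 and 12.7 CPM in apical, middle and basal OHCs, against 336, 380 and 122 CPM in apical, middle and basal IHCs, with log2 ratios of −5.88, −2.04 and −3.17. The direction was the same in both series, with −3.08, −1.03 and −4.27 in the lower and −8.80, −2.14 and −1.26 in the higher. Few cells carry these OHC levels. In the lower series, 97.0% of the apical and 99.8% of the middle OHC counts came from 1 cell each. The base of the higher series held 2 OHCs. Apical OHCs ran from 0 to 90.5 CPM (median 0), and without the highest cell they pooled to 0.261 CPM. Middle OHCs ran from 0 to 465 CPM (median 0), and 8 of the 23 reached 10 CPM. The cell at 465 CPM was replicate 19, with 6.95 CPM of Ocm. Basal OHCs ran from 0 to 223 CPM (median 3.63), with 3 of 8 at 10 CPM or more, and the highest of them was replicate 1, which had no Ocm. In IHCs the highest cell held 5306 CPM in apical, 1777 CPM in middle and 550.4 CPM in basal cells, and 40 of 87 reached 10 CPM. The middle OHCs divided by series. All 7 cells of the higher series reached 10 CPM of Egr1, with a median of 137 CPM, and none of the 7 had a single count of Fos. In the 16 middle OHCs of the lower series, 1 reached 10 CPM. In the 12 apical OHCs of the higher series, 0 did, and their highest cell held 4.04 CPM.

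Nr4a1 was the member that went the other way in the base. Its pooled level was 148 CPM in basal OHCs against 1.37 CPM in basal IHCs, a log2 ratio of 5.97 (6.57 in the lower series and 3.05 in the higher). The 8 basal OHCs ran from 0 to 511 CPM with a median of 0.310, and 97.4% of their counts came from the cell at 511 CPM. That cell was replicate 8, with 1.76 CPM of Ocm. The ratio of the lower series rests on it. That of the higher series rests on replicate 2 alone, at 28.6 CPM, since the other of its 2 basal OHCs held 0. Replicate 2 had 14.8% mitochondrial counts. Without the highest cell of each group, the ratio was 2.34, with 4.85 CPM in basal OHCs and 0.158 CPM in basal IHCs. Most of the OHC counts left came from replicate 2, so neither the series nor this ratio is free of single cells. In the apex Nr4a1 was at 4.65 CPM in OHCs, of which 99.4% came from 1 cell, against 8.83 CPM in IHCs, a ratio of −0.80 pooled and −1.08 within the higher series. In the middle it was at 4.004 CPM in OHCs against 57.6 CPM in IHCs, where 9 of the 34 cells reached 10 CPM, all in the higher series. The middle ratio was −3.55, and in the lower series −0.05.

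Btg2 had the highest level per kb of exon in each IHC group, 172, 133 and 78.2 CPM per kb in apical, middle and basal IHCs, followed by Egr1 in apical (74.9) and middle (84.8) IHCs. As CPM it was at 1.80, 9.99 and 0 in apical, middle and basal OHCs, against 472, 365 and 214 in apical, middle and basal IHCs. No basal OHC had a count, which with 3 counts as the limit over the group places the pooled level at least 1435-fold lower than in basal IHCs. That limit covers counting error of these sums only, not the spread of cells. With 0 of 8 cells, the 95% Clopper-Pearson interval of the share ran up to 36.9%. That interval treats the cells as independent, which no label can show. The median basal IHC held 0.330 CPM, and 2 of the 19 held at least 50% of the counts. Cells at 10 CPM or more numbered 3 of 52 OHCs and 43 of 87 IHCs. Unlike Fosb, Btg2 was high in both series, with 17 of 50 IHCs at 10 CPM or more in the lower series and 26 of 37 in the higher. Its log2 ratio was −7.40, −5.06 and −7.75 from apex to base. The ratio was −7.79, −9.65 and −5.00 in the lower series and −7.56, −2.67 and −8.81 in the higher series, the same direction in all 6.

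Ier2 was low throughout, at 0.189, 5.95 and 0 CPM in apical, middle and basal OHCs, against 7.33, 8.02 and 0.0532 CPM in apical, middle and basal IHCs. It was at least 2-fold lower in OHCs in the apex (−2.81) but not in the middle (−0.38). In the lower series the apex gave −0.65, short of 2-fold, and the middle −1.35. Atf3 was barely detected. It had 52, 3 and 0 counts in apical, middle and basal OHCs, 51 of the 52 in 1 cell, and 5, 1 and 0 counts in the IHCs, and no cell of the 139 reached 10 CPM. In the base, 0 counts over the group, with 3 counts as the limit, allow up to 0.149 CPM in OHCs and 0.0228 CPM in IHCs.

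**Figure D2:**
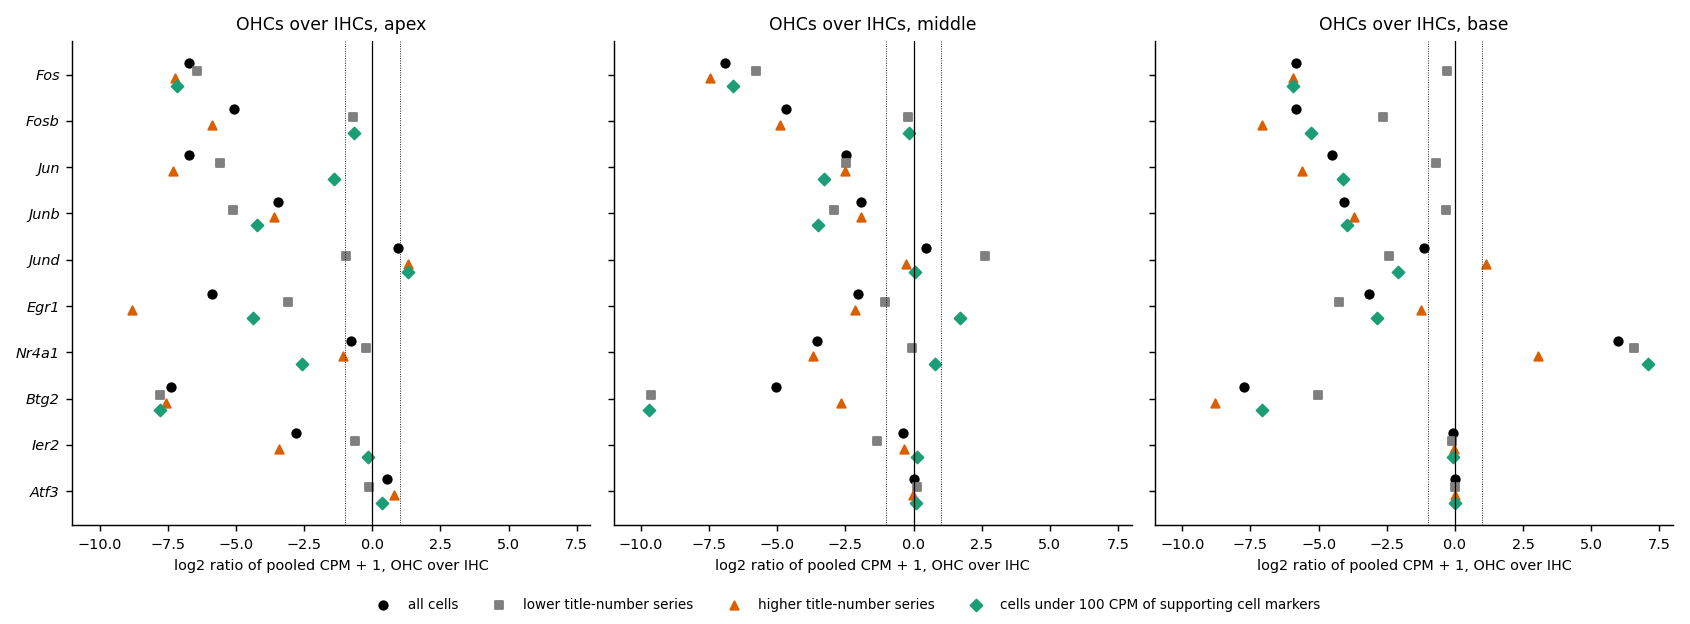
Points give the log2 ratio of pooled CPM + 1, OHC over IHC, for each member in each region, from all cells, from each title-number series and from cells below 100 CPM of supporting cell markers, with dotted lines at 2-fold. Fos and Btg2 lie far below 0 in the apex and middle under all 4, whereas Fosb lies near 0 there in the lower series and in cells with few supporting cell reads.

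The base and the apex were compared within each type, sharing the same group sums as above. In IHCs, 6 of 10 members were at least 2-fold lower in basal cells and 0 were at least 2-fold higher, where 31.5% of genes were lower and 26.5% higher. The log2 ratios of these 6 were −1.61 for Jun, −2.11 for Junb, −1.45 for Egr1, −2.98 for Ier2, −1.13 for Btg2 and −2.05 for Nr4a1. Fos stood at −0.68 and Fosb at 0.84. These values moved with the series. Fos was lower in basal IHCs in the lower series (−7.02) and slightly higher in the higher series (0.35), and Btg2 was at −3.91 and −0.43. In the lower series Egr1 (−0.84), Ier2 (−0.58) and Nr4a1 (−0.02) fell short of 2-fold. Among cells below 100 CPM of supporting cell markers, described further on, Jun stood at 3.24 and Fosb at 4.75, higher in basal IHCs, and Ier2 at −0.31. In OHCs, 3 members were at least 2-fold lower in basal cells (Junb, Jund and Btg2) and 2 were higher (Egr1 and Nr4a1), where 47.6% of genes were lower and 17.4% higher and the median gene stood at −0.72 (−0.37 to −0.95 under the other scalings). That count lies near or below the share of all genes, and in the 8 basal OHCs it turns on single cells. Egr1 stood at 1.26, against −2.03 in the lower series.

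Within each group, the counts of most members came from very few cells. In every group with counts, between 1 and 4 cells held at least 50% of the counts of Fos, Fosb, Jun, Junb, Egr1, Ier2, Btg2 and Nr4a1. Jund needed up to 6, in apical IHCs. The top cell held 26.2% of the Fos counts, 33.4% of the Egr1 counts and 22.8% of the Btg2 counts of apical IHCs. These were 3 different cells, replicates 27, 12 and 26.

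High levels of several members often fell in the same cells. Cells with at least 5 members at 10 CPM or more numbered 2 of 52 OHCs and 22 of 87 IHCs, and all 24 were in the higher series (24 of 58 cells, against 0 of 81 in the lower). In middle IHCs of the higher series they were 11 of 13 cells, in apical IHCs 7 of 17 and in basal IHCs 4 of 7. The 2 OHCs were middle cells, 2 of 7. In the higher series the median cell held 1 member at 10 CPM or more in OHCs and 6 in IHCs, and in the lower series 0 in OHCs and 1 in IHCs. Depth and genes detected differed between the series, though not alike in all groups. Middle cells of the higher series had a median of 9594 detected genes in OHCs and 9891 in IHCs, against 5334 and 4689 in the lower series for OHCs and IHCs. In the base the order was the other way, with 4321 in OHCs and 7309 in IHCs of the higher series, against 7093 and 9728 in the lower. Apical OHCs of the higher series had 5786, against 6565 in the lower, and apical IHCs 6399 against 5125. After thinning to equal depth, the median of members with a read was 3 in OHCs and 7 in IHCs of the higher series, and 2 in OHCs and 3 in IHCs of the lower.

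**Figure D3:**
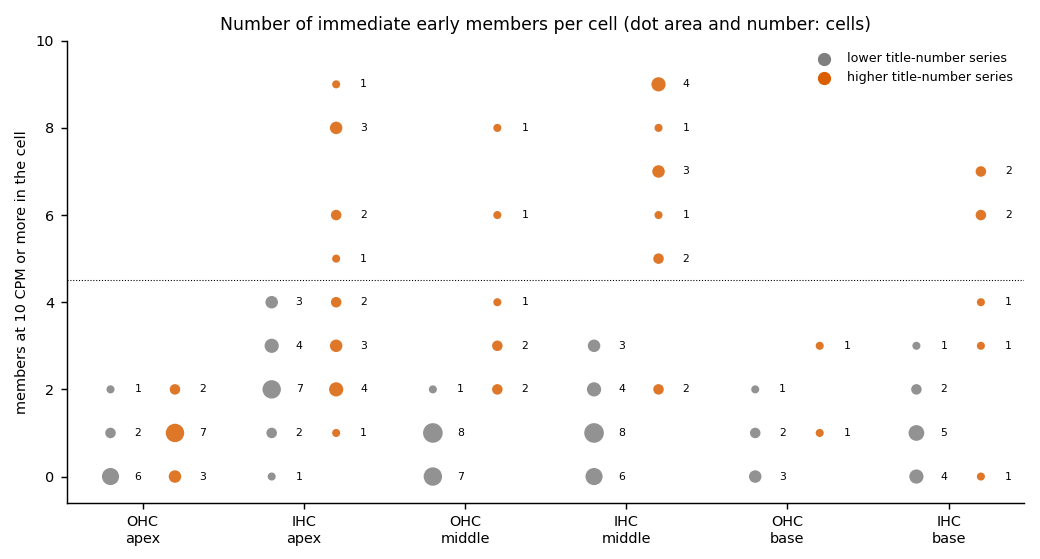
The number of members at 10 CPM or more in a cell is plotted by group and title-number series, with dot area and the printed number giving the cells. Points above the dotted line, at 5 members or more, belong to the higher series, 2 in middle OHCs and 22 in IHCs.

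The cells that were high in Fos differed between the series in what else they held. In the higher series, 18 IHCs reached 10 CPM of Fos, among them apical replicate 18, which had no count of Otof or Slc17a8. All 18 also reached 10 CPM of Jun and of Egr1, 17 of Btg2, 16 of Fosb, 16 of Junb and 11 of Nr4a1. In the lower series, 7 IHCs reached 10 CPM of Fos, and of these 3 also reached it for Egr1, 2 for Btg2, 1 for Jun, 1 for Junb and 0 for Fosb and Nr4a1. Likewise, 17 IHCs of the lower series reached 10 CPM of Btg2, and 2 of them also of Fos, against 17 of 26 in the higher series. In OHCs of the higher series, 9 cells reached 10 CPM of Egr1, 4 of them also of Jun, 3 of Junb, 2 of Fosb and 0 of Fos.

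As correlations of log2 CPM + 1 over the 125 thinned cells, with the mean of each group and series subtracted, the 45 pairs of members had a median Pearson r of 0.151, and of 0.368 without that subtraction. The cells share groups, series and depth, so r is a description. Pairs with Jund had a median of 0.0213, and the 28 pairs without Jund and Atf3 ran from −0.0265 to 0.626 with a median of 0.260. Over 7019 other genes, the 6 most like Fos were Fosb (0.626), Jun (0.532), Egr1 (0.519), Nfkbiz (0.501), Map4k3 (0.492) and Timm44 (0.483). Nfkbiz encodes a nuclear regulator of NF-κB, Map4k3 a kinase and Timm44 a part of the mitochondrial protein import machinery. Fos was in turn the gene most like Fosb, most like Jun and most like Egr1. Nr4a1 stood at rank 324 for likeness to Fos, Btg2 at 658, Junb at 1082 and Jund at 3101.

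The order rested on the higher series. There, over 56 cells, Fosb (0.805), Egr1 (0.770), Jun (0.692) and Nfkbiz (0.680) held ranks 1 to 4. In the 69 cells of the lower series, Fosb stood at rank 3271 (0.0247), Jun at 859 and Egr1 at 854. For Btg2 the most alike gene was Tmem170b (0.491), for Junb Crtc2 (0.475), for Nr4a1 Megf9 (0.547) and for Jund Glul (0.463), and none of these 4 members had another member among its 10 most alike genes.

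**Figure D4:**
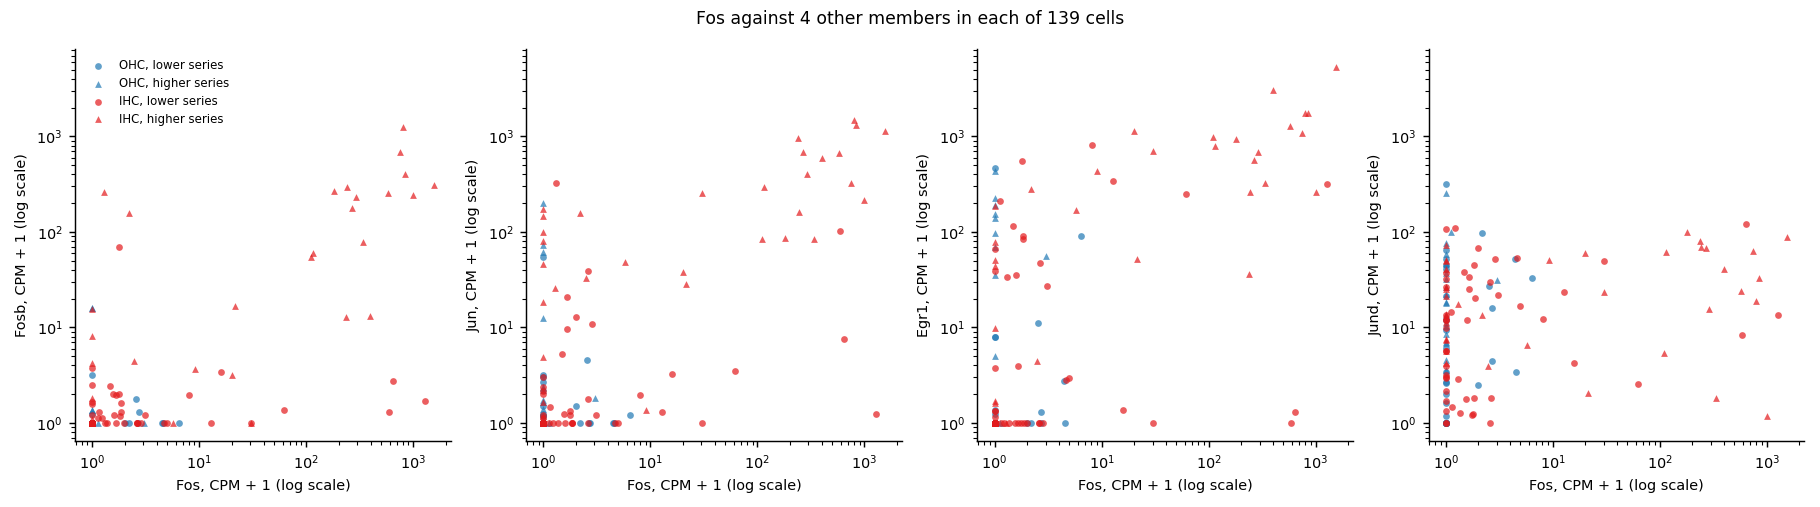
Each point is 1 cell, placed by CPM + 1 of Fos and of Fosb, Jun, Egr1 or Jund, both on log scales, with colour for the cell type and shape for the title-number series. IHCs of the higher series with Fos above 10 CPM lie high in Jun and Egr1 too, 9 of the 12 OHCs at 10 CPM or more of Egr1 have 0 Fos, and Jund spreads over cells with and without Fos.

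Most markers of supporting cells stood lower in OHCs in the pooled groups. Beside this list and those below, 32.4%, 29.7% and 48.9% of all genes that reached 5 CPM were at least 2-fold lower in OHCs from apex to base. The shares at least 2-fold higher were 28.6%, 20.7% and 16.1%. Supporting cells are the glia-like cells that hold hair cells in place. Of 12 markers, 10 reached 5 CPM, and 7 of the 10 were at least 2-fold lower in OHCs in each of the 3 regions. From apex to base, 5, 3 and 5 of these markers were lower within the lower series, and 7, 7 and 4 within the higher. The shares above are those of all cells, and the share of all genes within a series is not given here. In the base the median over all genes was −0.08 in the lower series and −1.83 in the higher. Their sum was 100.9, 405 and 103.1 CPM in apical, middle and basal OHCs, against 1914, 1908 and 905 CPM in apical, middle and basal IHCs. In the IHCs most of it came from Slc1a3, Gjb2 and Tectb. Prox1 went the other way, at 11.6, 11.9 and 43.8 CPM in the OHC groups and 0.654, 5.74 and 0.114 CPM in the IHC groups. Otoa also did in the apex and middle, at 8.31 and 23.98 CPM in OHCs and 1.08 and 6.78 CPM in IHCs. By cell the sum ran from 0 to 1387, from 0 to 2797 and from 0 to 582 CPM in these OHC groups, and from 0.188 to 14417, from 0 to 11481 and from 0.194 to 5627 CPM in the IHC groups. Hes5 was at 0 in basal OHCs and in middle IHCs, and Sox2 stood at 0.0199, 6.99 and 0.149 CPM in the OHC groups, against 15.03, 7.67 and 3.36 CPM in the IHC groups. Of 24 cells with at least 5 members at 10 CPM or more, 22 held at least 100 CPM of these markers. These were 2 of 2 OHCs and 20 of 22 IHCs, where 38.1% of all higher-series OHCs and 86.5% of all higher-series IHCs held as much, so that for IHCs the count lies near the share of the series. Both OHCs were middle cells, and of the 7 higher-series middle OHCs 85.7% held as much, so their count lies near the share too. Across cells of 1 type and series, the summed 9 members without Jund had a Spearman correlation with the marker sum of 0.166 in higher-series IHCs (37 cells), 0.192 in lower-series IHCs (50), 0.428 in higher-series OHCs (21) and 0.0336 in lower-series OHCs (31).

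Leaving out cells with 100 CPM or more of these markers kept 41 of 52 OHCs and 35 of 87 IHCs. Fos was then at −7.15, −6.62 and −5.95 from apex to base, with 0 of 41 OHCs and 6 of 35 IHCs at 10 CPM or more. These IHCs were 3 of 10 in the apex, 1 of 13 in the middle and 2 of 12 in the base. Most Fos counts of the kept IHCs came from 1 cell in the apex (replicate 27, 1279 CPM) and 1 in the middle (replicate 25, 589 CPM). Btg2 was at −7.79, −9.71 and −7.09, with 1 OHC and 14 IHCs at 10 CPM or more. Junb stayed at least 2-fold lower in OHCs in the 3 regions (−4.22, −3.52 and −3.94), and so did Jun (−1.40, −3.30 and −4.10), while Ier2 was at −0.16 in the apex. Fosb stood at −0.66 in the apex and −0.15 in the middle, with −5.28 in the base, and Egr1 at −4.37 in the apex and −2.87 in the base but 1.69 in the middle. Counts of members at least 2-fold lower in OHCs were then 6, 4 and 7 from apex to base. The share of all genes lower in these cells is not given here, and the median over all genes was 0.06, 0.01 and −0.12. Of the middle IHCs kept, 0 of 13 were in the higher series. The part of the supporting cell reads in the values of Fosb, Egr1 and Nr4a1 was not tested beyond this.

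**Figure D5:**
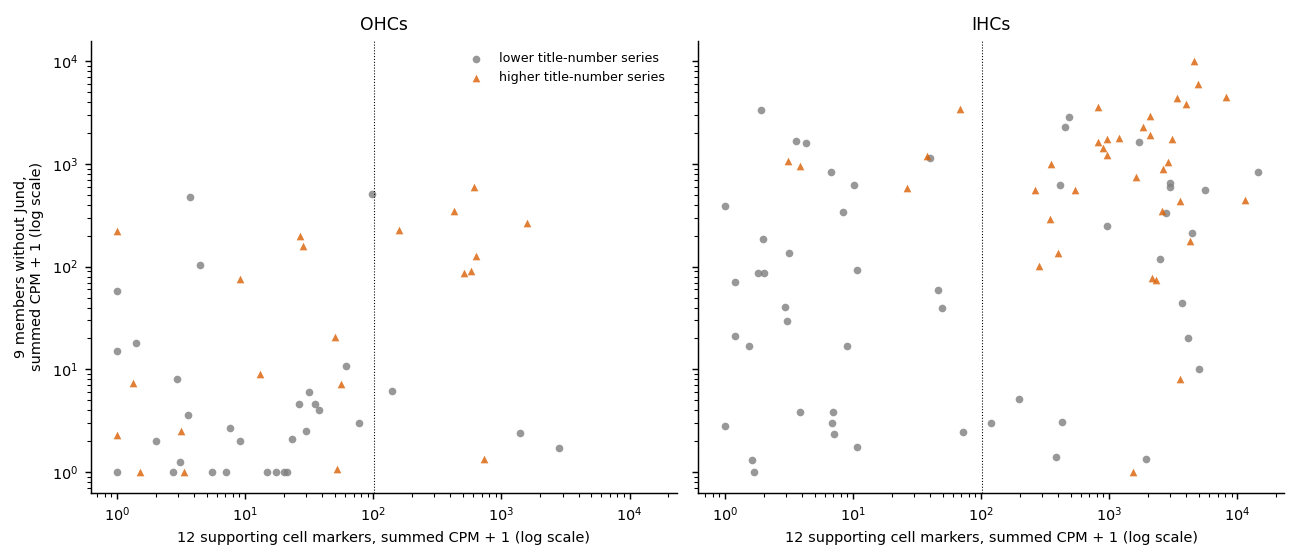
Each point is 1 cell, placed by the summed CPM + 1 of 12 supporting cell markers and by the summed CPM + 1 of the 9 members without Jund, both on log scales, with the dotted line at 100 CPM of markers. The highest IHC holds 3425 CPM of members left of the line and 9985 CPM right of it, and 41 of 52 OHCs and 35 of 87 IHCs lie left of it.

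Other marker lists gave a mixed picture. Of 10 mesenchyme markers, OHCs had 6 at least 2-fold higher and 1 lower in the apex, 6 and 0 in the middle, and 4 and 3 in the base. Their median log2 ratio in the middle was 1.54, but −0.25 in the lower series. Their sum was 20331 CPM in basal OHCs against 2428 CPM in basal IHCs. Of 9 blood and immune markers that reached 5 CPM, 5, 7 and 6 were higher in OHCs from apex to base and 0 were lower. They summed to 19587 CPM in basal OHCs against 3431 CPM in basal IHCs, with Cx3cr1 at 0 in basal OHCs. Of 11 neuron and glia markers that did, 3, 5 and 6 were higher and 1, 0 and 1 lower. Pericyte and endothelium markers summed to 3.01 and 29.1 CPM in OHCs of the apex and middle, against 59.7 and 74.4 CPM in the IHCs there. The base went the other way, with 87.2 CPM in OHCs against 9.02 CPM in IHCs. General hair cell markers, 8 in all, had 3 higher and 1 lower in OHCs in the apex, 0 and 4 in the middle, and 1 and 5 in the base. Across the 21 higher-series OHCs, the Spearman correlation with the summed members was 0.657 for the neuron and glia list, 0.608 for mesenchyme, 0.581 for pericytes and endothelium and −0.653 for general hair cell markers. In the 37 higher-series IHCs it was −0.507 for neurons and glia and −0.141 for general hair cell markers. Their part in the members' levels was not tested.

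Heat shock genes, which also respond to handling, were mixed in the apex and middle over all cells, but mostly lower in OHCs or short of 2-fold within the lower series. In that series, 0 were at least 2-fold higher and 7 lower in OHCs in the apex, 1 and 10 in the middle, and 0 and 8 in the base. In the higher series the counts were 3 and 2, 3 and 1, and 3 and 8. The counts that follow are those of all cells. Of 15 such genes 14 reached 5 CPM, and 3 were at least 2-fold higher and 2 lower in OHCs in the apex, 2 higher and 6 lower in the middle, and 1 higher and 10 lower in the base. Hsp90aa1, the inducible cytosolic HSP90, was at 2301, 778 and 388 CPM in apical, middle and basal OHCs, against 3085, 2815 and 1798 CPM in the IHCs. Dnajb4, a co-chaperone, was at 1.43, 2.26 and 0 CPM in these OHCs, against 14.2, 25.3 and 36.7 CPM in the IHCs. Hsp90ab1 was at 1280, 482 and 7718 CPM in these OHCs, against 1830, 1165 and 2479 CPM in the IHCs. It was thus higher in OHCs in the base. Hspe1 was higher in OHCs in every region, short of 2-fold, with log2 ratios of 0.79, 0.16 and 0.77. The list summed to 5442, 1955 and 8931 CPM in the OHC groups, against 6594, 5022.5 and 7109 CPM in the IHC groups. The summed heat shock list correlated with the summed members at −0.112 in higher-series IHCs, 0.262 in lower-series IHCs, −0.677 in higher-series OHCs and −0.150 in lower-series OHCs.

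Other immediate early genes were mixed. Of 35 further genes of this class 29 reached 5 CPM, and 8 were at least 2-fold higher and 9 lower in OHCs in the apex, 14 higher and 7 lower in the middle, and 6 higher and 13 lower in the base. Their median log2 ratio was 0.09, 0.83 and −0.11, where the median over all genes was −0.02, −0.07 and −0.89. Ccn1, a secreted matrix protein, came closest to the members, at 1.49, 21.3 and 0 CPM in apical, middle and basal OHCs, against 69.4, 40.6 and 91.4 CPM in the IHCs. Tiparp, an ADP-ribosylating enzyme, was at 29.3, 0.185 and 0.199 CPM in the OHC groups, against 24.1, 53.9 and 74.3 CPM in the IHC groups. Plk2, a polo-like kinase, was higher in OHCs in every region, at 31.5, 30.5 and 3.73 CPM against 5.05, 3.54 and 0.471 CPM in IHCs. Ier3 was too, at 4.43, 14.5 and 110.4 CPM against 0.324, 2.27 and 44.7 CPM in IHCs. Sik1, a kinase induced by cyclic AMP, was at 91.1, 128 and 221 CPM in the OHC groups, against 54.9, 35.7 and 92.8 CPM in the IHC groups. The neuronal immediate early genes Arc and Npas4 were nearly silent, with at most 0.121 CPM of Arc and 0.0911 CPM of Npas4 in any group.

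Genes that act around the members were also mixed. Of 26 upstream kinases and transcription factors, all reached 5 CPM, and 9 were at least 2-fold higher and 9 lower in OHCs in the apex, 4 and 7 in the middle, and 5 and 13 in the base. Srf, which drives several members, was at 0.00994, 0.00806 and 0.0996 CPM in apical, middle and basal OHCs, against 59.1, 4.81 and 0.167 CPM in the IHCs. Crebbp, a coactivator of CREB, was at 592, 950.4 and 327 CPM in the OHC groups, against 862, 812 and 745 CPM in the IHC groups. Of 21 feedback regulators 20 reached 5 CPM, with 4 higher and 9 lower in the apex, 4 and 4 in the middle, and 6 and 8 in the base. Spry2, an inhibitor of growth factor signalling, was at 1626, 1319 and 3362 CPM in the OHC groups, against 1596, 857 and 2473 CPM in the IHC groups. Tob1, a relative of Btg2, was at 70.5, 161 and 0.299 CPM in the OHC groups, against 206, 121 and 85.7 CPM in the IHC groups. Of 17 other leucine zipper factors 15 reached 5 CPM, with 4 higher and 8 lower in the apex, 3 and 5 in the middle, and 5 and 8 in the base.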

How the data were processed

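RNA of single cells was sequenced on the Illumina HiSeq 2500, per the labels. The values deposited by the authors are raw read counts for each gene in 139 cells, without normalization. The submitters' processing notes name Trimmomatic, HISAT2, featureCounts (Subread 1.4.6) and GRCm38 (mm10). The sources used here do not state strandedness, the handling of multi-mapping reads or molecular identifiers. Columns were matched to samples by title, and 0 columns stayed unused. Of 55335 identifiers, 54587 matched GENCODE M21 with their version and 55154 without it.

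The count of each gene was added up over the cells in a group, TMM factors were taken from edgeR 4.0.16 in R 4.3.3, and levels are CPM with exact Poisson intervals at 95%. CPM of a cell used its total. Total counts ran between 71027 and 13576942 a cell, and intervals cover counting error only, since reads are not independent molecules. Shares of cells have Clopper-Pearson intervals, which treat cells as independent and do not cover the spread between animals. To compare shares and correlations, cells were thinned to 582635 counts (percentile 10 of totals), which left 125 cells. Named genes are the members, the 6 genes most like Fos (at least 5 CPM in a group and a read in 20% of thinned cells), the 4 check genes, and of 13 other lists the 2 highest, 2 lowest and 2 most abundant, of which a selection is printed; Arc, Npas4, Sox2 and Hes5 were picked with their values in view. Members, lists and tests were chosen with earlier results of these data known. Alternatives changed the scaling, cell weight, depth, cells, title-number series, pseudocount and filter. The ratios were tested on simulated data. Identical libraries were looked for: 0 pairs of columns were identical, and the 2 apical IHCs that share title number 17 had a correlation across genes of 0.212, against a median of 0.422 over pairs of apical IHCs, and were kept apart.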

Additional observations from a re-analysis of the deposited data

Results flagged for a closer look

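Basal OHCs, with 8 cells, were the group small enough to look for a cell far from the rest. The 7 members with any reads there were examined. With many cells at or near 0, the rate at which chance flags a cell is not known. In 3 of them the highest cell lay far from the rest of the group on the log scale. Fosb stood at 0.780 CPM in replicate 6, from 2 counts, and at 0 in every other cell, so that the zeros alone set its flag. Jun stood at 3.51 CPM in the same replicate 6, with the next cell at 0.806 CPM. Junb stood at 2.82 CPM in replicate 2, with the next cell at 0.176 CPM. All 3 values lie below 10 CPM and rest on few counts. The 511 CPM of Nr4a1 in replicate 8 was not among them, since the other cells were spread too.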

How the results depend on the processing

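No paired analysis was possible because each cell is its own sample, replicate numbers were given in accession order and no test was run. The title-number series and the supporting cell reads moved the results most. Without cells with 100 CPM or more of supporting cell markers, an alternative chosen after seeing the data, the log2 ratio in the middle of OHCs over IHCs was 1.69 for Egr1 and 0.79 for Nr4a1, in place of −2.04 and −3.55, and that of Jun in basal over apical IHCs was 3.24 in place of −1.61. Members at least 2-fold lower in OHCs in the middle were then 4 in place of 7; 1 was higher in the apex and 1 in the middle, in place of 0 each; 3 were higher in basal IHCs, in place of 0, and 1 in basal OHCs, in place of 2. In the higher series, Jund in the base stood at 1.12 in place of −1.13, 2 members were higher in basal OHCs than IHCs in place of 1, and 1 was higher in the apex. In the lower series, Egr1 in basal over apical OHCs stood at −2.03 in place of 1.26, 4 members were lower in basal OHCs than IHCs in place of 7, 1 was higher in middle OHCs and 1, in place of 2, in basal over apical OHCs. In basal over apical IHCs 1 member was higher, in place of 0, in either series, with equal weight per cell, without cells of over 10% mitochondrial or CT010467.1 counts, and without the top cell of each member. In apical OHCs over IHCs 1 was higher, in place of 0, with median-of-ratios scaling, without those cells of high mitochondrial or CT010467.1 share, and with a pseudocount of 0.1 CPM. In basal over apical OHCs 1 was higher with total counts alone or without those cells, and 1 was lower without the top cells and 5 with the pseudocount of 0.1 CPM, in place of 3. There the median over members was −0.08, and 0.0946 over the 9 that reached 5 CPM. The other 98 counts stayed within 1.5 times. The share of all genes past 2-fold under each of these alternatives is not given here, so the counts of members are not set against one. The cause of these moves was not tested. Leaving out a replicate was not run beyond the deepest and the top cells, since cells are not replicates. Depth limits Atf3, Ier2 and the OHC levels of Fos and Fosb, which rest on few counts.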
